A study of Homo sapiens with 6 samples.

Results

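Extracellular proteolysis genes were described in NCI-H1299, an established cell line labelled as human lung adenocarcinoma. Of 25287 genes in the authors' deposited table, 88 belong to this group. They were chosen by symbol, with earlier results of these data known. The symbols are those of matrix metalloproteinases (MMP), ADAM, ADAMTS and ADAMTS-like (ADAMTSL) genes, tissue inhibitors of metalloproteinases (TIMP), serpins, and PLAU, PLAUR, PLAT, RECK and BSG. A further 2 symbols that fit the pattern, MMP23A and SERPINA2, are annotated as pseudogenes and were left out. The study compared 3 libraries of cells carrying a short hairpin against ALDH18A1 (shALDH18A1) with 3 libraries of cells carrying a control hairpin (shControl), all from total RNA of cells grown in the same serum-containing medium. The series design text calls the control puro, and the hairpin sequences are not given in the labels. ALDH18A1 encodes the enzyme P5CS of proline synthesis, which the series title presents as an RNA-binding protein.

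MMPs cut collagens, gelatins and other matrix proteins, either as secreted enzymes or from the cell surface, and TIMPs and RECK hold them in check. ADAM proteases release the outer parts of membrane proteins, and ADAMTS proteases process procollagens, proteoglycans and other matrix proteins. The urokinase and tissue-type plasminogen activators (PLAU and PLAT) turn plasminogen into plasmin, the receptor PLAUR holds urokinase at the cell surface, and serpins inactivate both activators. In lung cancer this system is studied for its part in invasion.

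The metalloproteases of these families bind a catalytic zinc ion through a short stretch of 11 codons, the extended zinc-binding motif of metzincins. It is shown for the membrane-bound MMPs, gelatinases and ADAMs that the results below turn on, and the capitals mark the codons of the 3 histidines, the glutamate and the glycine that define it. The sequences are read 5′ to 3′ from the longest complete coding sequence in GENCODE release 29.
MMP17, chromosome 12, codons 248 to 258: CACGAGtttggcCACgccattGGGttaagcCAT
MMP14, chromosome 14, codons 239 to 249: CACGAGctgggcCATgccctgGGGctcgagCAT
MMP9, chromosome 20, codons 401 to 411: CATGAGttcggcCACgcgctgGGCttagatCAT
MMP2, chromosome 16, codons 403 to 413: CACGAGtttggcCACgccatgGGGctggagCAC
ADAM10, chromosome 15, codons 383 to 393: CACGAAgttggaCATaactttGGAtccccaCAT
ADAM19, chromosome 5, codons 345 to 355: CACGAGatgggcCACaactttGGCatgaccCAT

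The stretch was found in all 20 MMP genes and in the 8 ADAM genes classed here as catalytic. It was absent from the coding sequences read for the 7 ADAM genes classed as non-catalytic, which are known as adhesion proteins and receptors. Of the 19 ADAMTS genes it was found in 14. The other 5 (ADAMTS1, ADAMTS4, ADAMTS8, ADAMTS9 and ADAMTS15) did not hold these exact letters, which says nothing of their activity.

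Values of single libraries were not analysed here. The authors' deposited table gives 1 mean normalised count over the libraries, 1 log2 fold change with its standard error (SE) and 1 adjusted p per gene. Its headers leave unnamed the group that stands on top of the ratio. The targeted gene ALDH18A1, which would show the direction, lay at a log2 fold change of -0.08 (SE 0.07, adjusted p = 0.471 by DESeq2) in the authors' deposited table. Fold changes above 0 are therefore called the positive side, fold changes below 0 the negative side, and neither is assigned to a hairpin. Separate cultures for the 3 libraries of each group are not stated in the labels, and p-values may measure technical spread only. Of 4 markers read for an epithelial line, the keratin genes KRT8 and KRT18 had mean normalised counts of 18965 and 14244 in the authors' deposited table. They were positive at 0.32 (SE 0.06) and 0.61 (SE 0.06). VIM, the vimentin gene, had a higher mean of 24591 and was negative at -0.48 (SE 0.06, adjusted p = 3.9e-15 by DESeq2). EPCAM had a mean of only 41.4 and did not pass. The leukocyte markers PTPRC and LYZ had mean normalised counts of 12.8 and 2.22. Of 3 endothelial markers, PECAM1 was positive at 2.53 (SE 0.28, adjusted p = 3.9e-18 by DESeq2) with a mean normalised count of 116, while VWF (81.4) and CDH5 (25.4) did not pass in the authors' deposited table. Of 4 fibroblast markers, DCN was positive at 2.54 (SE 0.55) with a mean of 24.0, and COL1A1, COL3A1 and LUM, at means of 2.49 to 95.8, did not pass in the authors' deposited table. Their part in the results below was not tested.

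Of the 88 genes, 28 (31.8%) passed a DESeq2 adjusted p of 0.05 on the positive side (authors' deposited table), where 20.9% of all genes did. A further 19 (21.6%) passed on the negative side, where 21.5% of all genes did, and 41 did not pass. With a log2 fold change of at least 1 as well, 17 were positive and 11 negative, against 10.9% and 7.06% of all genes. The median log2 fold change was 0.09 over the 88 genes and 0.03 over all genes of the authors' deposited table.

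The abundant members lay mostly on the positive side. Of the 19 members with a mean normalised count of at least 1000, 15 were positive, 3 were negative and SERPINB7 was not called (authors' deposited table, DESeq2 adjusted p under 0.05). Among all genes at that level the shares were 33.2% positive and 50% negative (2855 of 5706). The median log2 fold change was 0.92 over these 19 genes and -0.19 over all genes at that level in the authors' deposited table. Because that mean covers both groups, ADAM22, ADAM23 and RECK reached 1000 only through the numerator side, and SERPINA1 only through the other. With about 1000 or more on both sides, a filter chosen after the data were seen, 12 of 15 members were positive and 2 negative, against 31.5% and 49.6% of all such genes. Of the 69 members below a mean of 1000, 13 (18.8%) were positive and 16 (23.2%) negative, against 17.3% and 13.2% of all genes at that level. The 20 members with a mean below 10 gave 1 call on each side in the authors' deposited table, and had a median SE of 1.16, so that changes of 1 log2 unit were not detectable there.

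A hydrophobic segment, as signal peptides and membrane spans hold, sought on the Kyte-Doolittle scale over 19 residues with an average of 1.6 or more, was found in 63 of the 88 members. It is a rough mark that also occurs in proteins of the cytosol, among them 5 of the 9 clade B serpins. No segment was found in 7 of the 14 secreted MMP genes and 9 of the 19 ADAMTS genes. The same held for 2 of the 5 ADAMTSL genes and 3 of the 6 plasminogen activation genes. Of 17 members with a segment and a mean of at least 1000, 14 were positive and 2 were on the negative side. By comparison, in the authors' deposited table, 59.2% of all coding genes with a segment at that level were positive, and 27.1% were negative. Coding genes without a segment at that level were 19.2% positive and 62.5% negative. The 2 members among them lay 1 on each side, PLAUR positive and SERPINB6 negative. PLAUR is a receptor of the cell surface that the mark missed. The median log2 fold change was 0.92 in those 17 members with a segment and 0.42 in the 1845 coding genes with one. The part that this shared property has in the result was not tested.

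**Figure D1:**
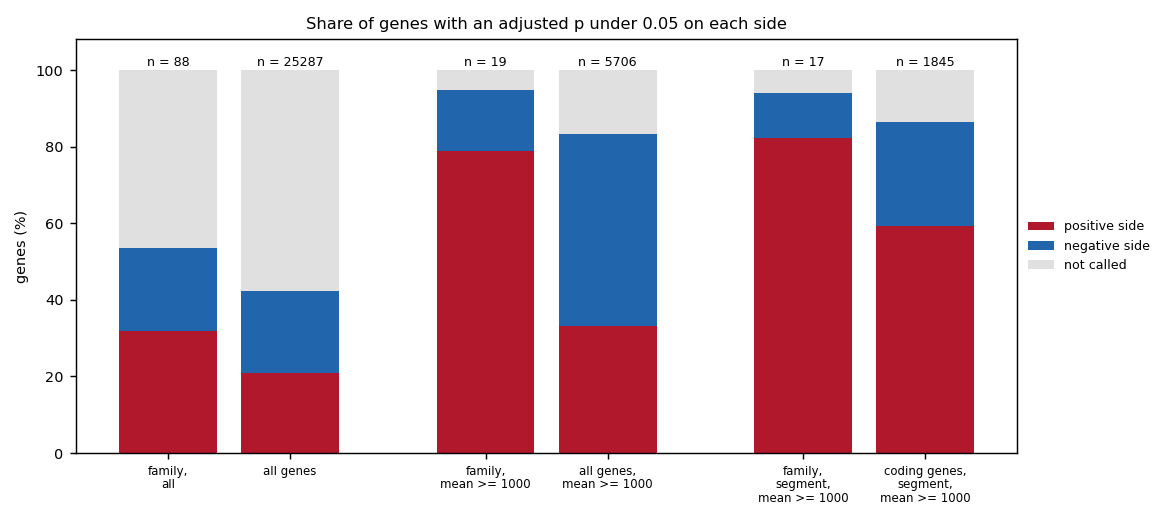
Share of genes (%) with a DESeq2 adjusted p under 0.05 on the positive side (red), on the negative side (blue) and without a call (grey), for the protease and inhibitor family and, to its right in each pair, for the genes it is set against. At means of 1000 or more, 15 of 19 family members were positive, against 33.2% of all genes and 59.2% of coding genes with a hydrophobic segment.

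Of the 6 plasminogen activation genes, 4 were positive and 2 were not called, where 20.9% of all genes were positive. All 3 plasminogen activation genes with a mean of at least 1000 were positive, against 33.2% of all genes at that level. Coding genes with a hydrophobic segment were 59.2% positive there. PLAUR, the urokinase receptor, had a mean normalised count of 27394 and a log2 fold change of 2.82 (SE 0.06, adjusted p listed as 0) in the authors' deposited table. That is 7.08-fold, with a 95% interval of 6.52 to 7.69. With equal group sizes, the deposited mean and fold change correspond to about 48006 normalised counts on the numerator side and 6781 on the other.

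PLAT, the tissue-type activator, lay at 0.75 (SE 0.07, adjusted p = 3.9e-24 by DESeq2) at a mean normalised count of 2951 in the authors' deposited table. SERPINE2, protease nexin-1, which inhibits thrombin and the activators, lay at 0.35 (SE 0.11, adjusted p = 0.0057 by DESeq2) in the authors' deposited table. After a shift of fold changes to equal total counts it did not pass (0.24, adjusted p = 0.0863). The urokinase gene PLAU was low, with a mean normalised count of 18.7 and a log2 fold change of -0.64 (SE 0.59, adjusted p = 0.434 by DESeq2) in the authors' deposited table. Its 95% interval ran from -1.79 to 0.51, too wide for a statement on direction. SERPINF2, the plasmin inhibitor, had a mean of 14.2 and did not pass either.

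**Figure D2:**
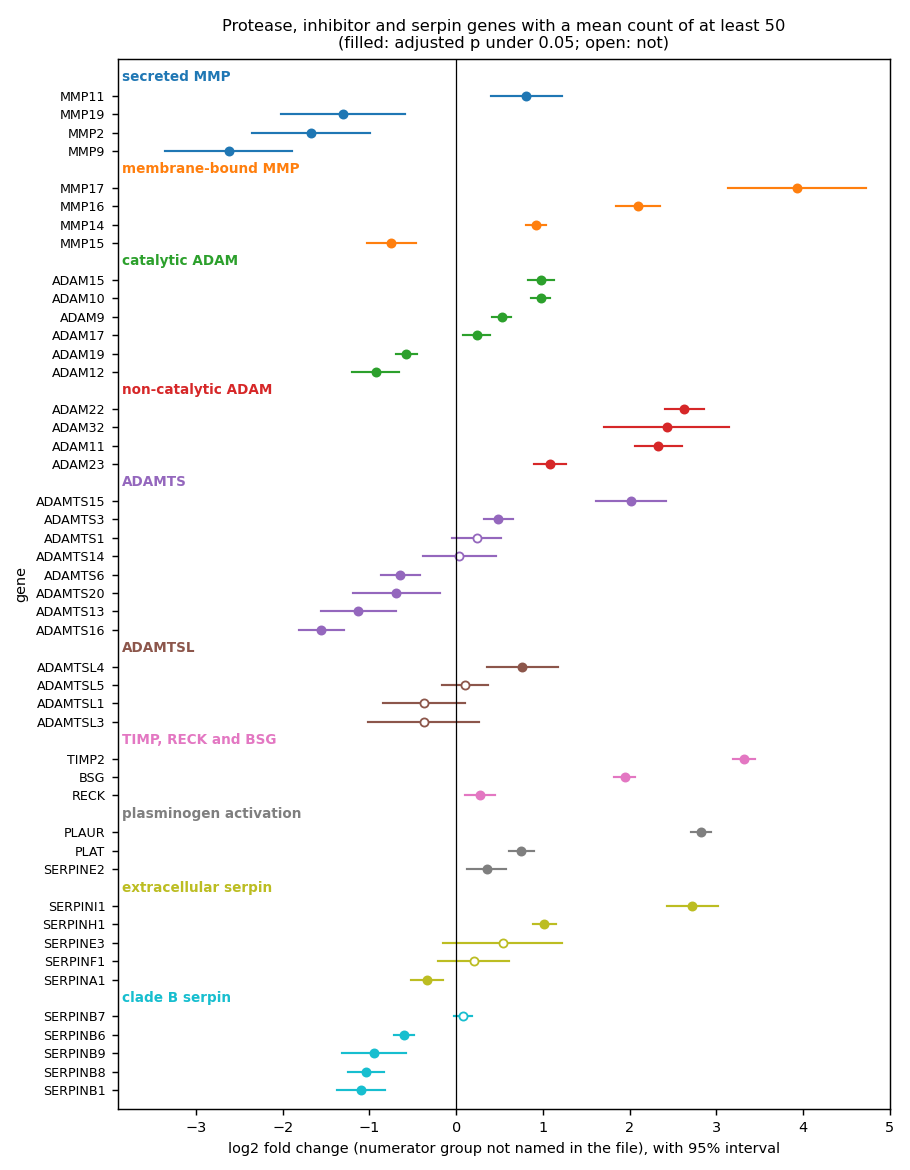
Log2 fold change (horizontal axis) with its 95% interval for 46 of the 47 family members with a mean normalised count of at least 50, grouped by role. Filled points passed a DESeq2 adjusted p of 0.05: the plasminogen activation genes and non-catalytic ADAM genes that are drawn lie right of 0, and 4 of the 5 clade B serpins lie left of it.

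TIMP2 had the largest fold change of the 19 abundant members. This gene encodes an inhibitor of MMPs that also assists MMP14 in activating MMP2. Its mean normalised count was 9400 and its log2 fold change 3.32 (SE 0.06, adjusted p listed as 0) in the authors' deposited table, a fold of 10.0 (9.17 to 10.9). This corresponds to about 17091 normalised counts on the numerator side and 1710 on the other. BSG, which encodes basigin (EMMPRIN), a surface glycoprotein known to induce MMPs in neighbouring cells and to escort lactate transporters, lay at 1.95 (SE 0.06, adjusted p = 7.1e-215 by DESeq2) in the authors' deposited table. Its mean normalised count was 60420. RECK, a membrane-anchored MMP inhibitor, lay at 0.27 (SE 0.09, adjusted p = 0.0067 by DESeq2) in the authors' deposited table, and lost its call with equal total counts (0.16, adjusted p = 0.164). The other TIMP genes were not analysed here.

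**Figure D3:**
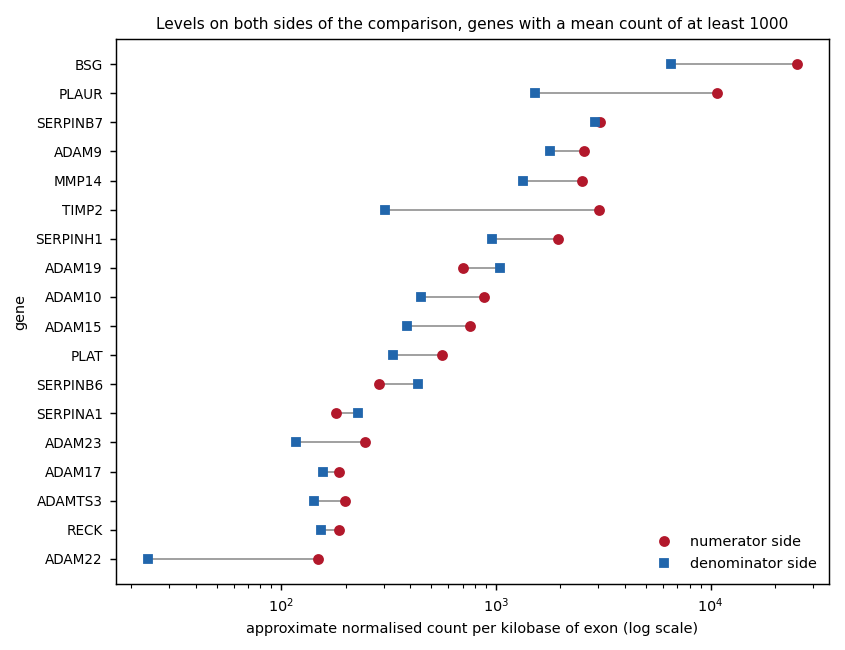
Approximate normalised count per kilobase of exon on the numerator side (circles) and the denominator side (squares) of the comparison, on a log axis, for 18 of the 19 family members with a mean normalised count of at least 1000. The widest gaps belong to TIMP2, PLAUR and ADAM22, and the 2 marks of SERPINB7 nearly coincide.

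Per kilobase of exon, BSG had a mean normalised count of 15913, above PLAUR with 6146. SERPINB7 (2982), ADAM9 (2179), MMP14 (1929), TIMP2 (1669) and SERPINH1 (1454) followed on this scale. All 7 lay at or above the 95th percentile of the 18416 genes with a length. MMP9 (22.9), MMP2 (11.1) and PLAU (6.35) were far lower per kilobase of exon. These lengths join all annotated exons, so genes with many isoforms are placed too low.

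Of the 6 membrane-bound MMP genes, 3 were positive and 1 was negative, and of the 14 secreted MMP genes, 2 were positive and 5 negative, where all genes were 20.9% positive and 21.5% negative. Whether the classes differ was not tested. MMP14, the membrane collagenase that activates MMP2, had a mean normalised count of 8611 and a log2 fold change of 0.92 (SE 0.06, adjusted p = 1.4e-51 by DESeq2) in the authors' deposited table. MMP16, another transmembrane enzyme, lay at 2.10 (SE 0.13, adjusted p = 1.8e-57 by DESeq2) in the authors' deposited table. MMP17, which is held by a lipid anchor, had the largest value among members with a mean of at least 50, at 3.93 (SE 0.41, adjusted p = 2.8e-21 by DESeq2) in the authors' deposited table. Its 95% interval of the fold ran from 8.80 to 26.5. The SE of MMP17 was 2.66 times the median of genes with a like mean count. MMP15 lay on the negative side at -0.75 (SE 0.15, adjusted p = 1.3e-06 by DESeq2) in the authors' deposited table. MMP23B and MMP25, with means of 34.4 and 11.6, did not pass, and MMP23B overlaps the more abundant CDK11B on the opposite strand.

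The highest mean normalised count among the 14 secreted MMP genes was 155, for MMP11. The gelatinase genes were on the negative side (authors' deposited table), MMP9 at -2.62 (SE 0.37, adjusted p = 1.2e-11 by DESeq2) and MMP2 at -1.67 (SE 0.34, adjusted p = 4.9e-06 by DESeq2). On the negative side too, MMP19 lay at -1.31 (SE 0.37, adjusted p = 0.0012 by DESeq2) in the authors' deposited table. MMP11, stromelysin-3, was positive at 0.81 (SE 0.21, adjusted p = 0.0004 by DESeq2) in the authors' deposited table. Its span overlaps CHCHD10 on the opposite strand, which had a higher mean count (1233) and a close log2 fold change of 0.82. MMP19 likewise overlaps TMEM198B (122.5 normalised counts, log2 fold change 0.34) and MMP9 overlaps SLC12A5-AS1 (25.6 normalised counts, log2 fold change 1.09), and the sources used here do not give whether counting used strand.

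A cluster of 7 secreted MMP genes spans 435 kb of chromosome 11 (102520508 to 102955734, GRCh38). MMP20 (-3.04, SE 0.74) and MMP7 (-3.03, SE 1.17) passed on the negative side and MMP27 (4.64, SE 1.93) on the positive side (authors' deposited table). All 7 genes had a mean normalised count of at most 45.2, and MMP27 had 2.34. MMP21, on chromosome 10, had the next largest positive fold change, 3.98, but an SE of 2.48, which was 3.63 times the usual SE at its mean count of 14.1 in the authors' deposited table. It did not pass (adjusted p = 0.206 by DESeq2).

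**Figure D4:**
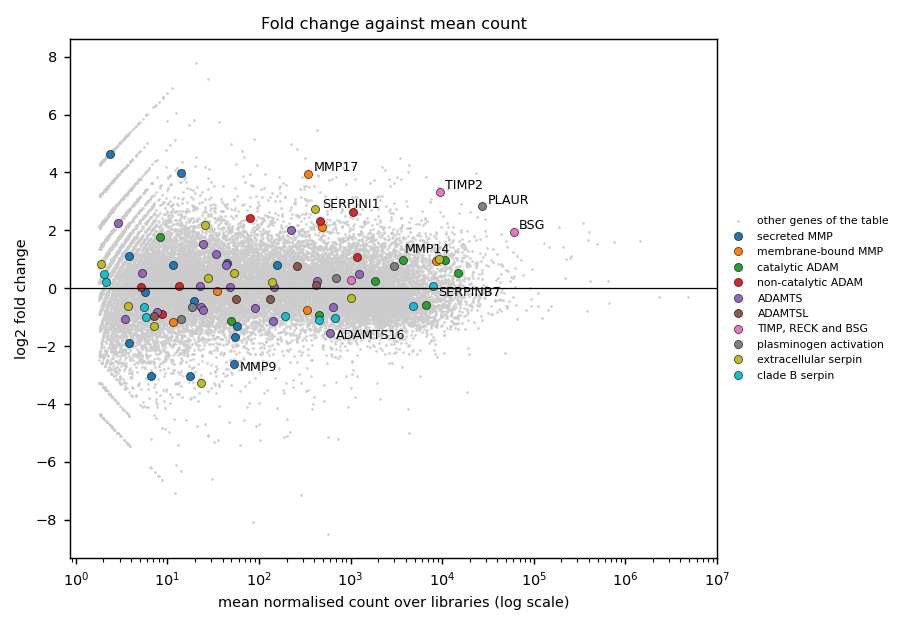
Log2 fold change against the mean normalised count (log axis) for all genes of the table (grey) and for 87 of the 88 family members, coloured by role. The abundant members BSG, PLAUR and TIMP2 lie above 0 at the right, and MMP9 is among the low-count members below 0.

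Of the 8 catalytic ADAM genes, 4 were positive and 3 negative, against 20.9% and 21.5% of all genes. Of the 5 with a mean of at least 1000, 4 were positive and 1 negative, against 33.2% and 50% at that level. All 8 hold a hydrophobic segment, and coding genes with one at that level were 59.2% positive and 27.1% negative. ADAM10, the sheddase of Notch receptors and N-cadherin, lay at 0.97 (SE 0.06, adjusted p = 4.6e-61 by DESeq2) at a mean normalised count of 10738 in the authors' deposited table. ADAM15, whose disintegrin domain binds integrins, lay at 0.98 (SE 0.07, adjusted p = 2.6e-38 by DESeq2), and ADAM9, another sheddase, at 0.53 (SE 0.06, adjusted p = 1.2e-19 by DESeq2) in the authors' deposited table. ADAM17, the protease that releases TNF and several EGF receptor ligands, lay at 0.24 (SE 0.08, adjusted p = 0.0082 by DESeq2) in the authors' deposited table. It lost its call with equal total counts (0.12, adjusted p = 0.245), and its span overlaps IAH1 on the opposite strand (141 normalised counts, log2 fold change -0.77). ADAM19 and ADAM12 were on the other side of the authors' deposited table, ADAM19 at -0.57 (SE 0.06, adjusted p = 3.0e-19 by DESeq2) and ADAM12 at -0.93 (SE 0.14, adjusted p = 9.6e-11 by DESeq2). ADAM8 (-1.13, SE 0.37, adjusted p = 0.0057 by DESeq2) passed on the negative side (authors' deposited table) at a mean normalised count just under 50.

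Of the 7 non-catalytic ADAM genes, 4 were positive and none negative, against 20.9% and 21.5% of all genes. All 7 hold a hydrophobic segment, and the 4 positive genes were the 4 with a mean of at least 50. At that level, coding genes with a segment were 52.9% positive and 23.2% negative. ADAM22, a receptor of the LGI family of secreted neuronal proteins, had a mean normalised count of 1052 and a log2 fold change of 2.63 (SE 0.11, adjusted p = 2.5e-115 by DESeq2) in the authors' deposited table. Its relatives ADAM11 (2.33, SE 0.14) and ADAM23 (1.08, SE 0.09) were positive as well (DESeq2 adjusted p of 1.3e-29 or lower in the authors' deposited table). ADAM32, best known from testis, lay at 2.43 (SE 0.37, adjusted p = 1.9e-10 by DESeq2) at a mean of 80.2 in the authors' deposited table, about 135 on the numerator side and 25.2 on the other. On chromosome 8 it begins less than 2 kb past the end of ADAM9, on the same strand. ADAM2, ADAM18 and ADAM29, with means of 5.08 to 13.3, did not pass.

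Of the 19 ADAMTS genes, 4 were on each side of the authors' deposited table (21.1%) and 11 had no call, close to the 20.9% positive and 21.5% negative of all genes. ADAMTS15, a proteoglycan-cleaving enzyme, was highest among those with a mean of at least 50, at 2.02 (SE 0.21, adjusted p = 1.1e-21 by DESeq2) in the authors' deposited table. Its neighbour on chromosome 11, ADAMTS8, also passed on the positive side (1.52, SE 0.54, adjusted p = 0.013 by DESeq2) at a mean of 24.2 in the authors' deposited table. ADAMTS3, a procollagen processing enzyme, had a mean normalised count of 1225 and lay at 0.49 (SE 0.09, adjusted p = 9.9e-08 by DESeq2) in the authors' deposited table. The authors' deposited table placed on the negative side ADAMTS16 (-1.55, SE 0.13), the von Willebrand factor protease gene ADAMTS13 (-1.13, SE 0.22), ADAMTS20 (-0.69, SE 0.26) and ADAMTS6 (-0.64, SE 0.12), with DESeq2 adjusted p-values of 0.019 or lower. ADAMTS13 overlaps REXO4 on the opposite strand, which had 1204 normalised counts and a log2 fold change of -0.24. ADAMTS7 (1.18, SE 0.50, adjusted p = 0.0424 by DESeq2) overlaps the far more abundant MORF4L1 and lost its call with equal total counts (1.06, adjusted p = 0.0728).

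Of the 5 ADAMTSL genes, whose proteins lack the protease domain, ADAMTSL4 passed, at 0.76 (SE 0.21, adjusted p = 0.00074 by DESeq2) in the authors' deposited table. ADAMTSL4 is known to bind fibrillin microfibrils. ADAMTSL5 had a mean normalised count of 418 and lay at 0.10 (95% interval -0.17 to 0.37) in the authors' deposited table. ADAMTSL1, which overlaps SAXO1 on the opposite strand, lay at -0.37 (95% interval -0.84 to 0.11) in the authors' deposited table.

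Among the other extracellular serpins, SERPINI1 (neuroserpin), an inhibitor of the tissue-type activator, had the largest value of those with a mean of at least 50. It lay at 2.72 (SE 0.15, adjusted p = 3.0e-73 by DESeq2), or 6.60-fold, at a mean normalised count of 406 in the authors' deposited table. SERPINH1, the collagen chaperone HSP47 of the endoplasmic reticulum, which inhibits no protease, lay at 1.02 (SE 0.07, adjusted p = 3.3e-51 by DESeq2) in the authors' deposited table. SERPINA1, which encodes alpha-1 antitrypsin, was on the negative side (authors' deposited table) at -0.34 (SE 0.10, adjusted p = 0.0015 by DESeq2). Its neighbours in the chromosome 14 serpin cluster went both ways at low counts, SERPINA10 at 2.18 (SE 0.59) and SERPINA6 at -3.29 (SE 0.64), with means of 25.9 and 23.1 in the authors' deposited table. The remaining 6 of the 11 genes, at means of 1.88 to 139.5, did not pass.

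Clade B serpins, which mostly act inside cells, lay on the negative side where they were called. Of 9 in the authors' deposited table, 4 passed there and none on the positive side, where 21.5% of all genes were negative and 20.9% positive. Of the 5 with a mean of at least 50, 4 were negative, against 37.0% of all genes at that level, of which 33.4% were positive. SERPINB1, an inhibitor of neutrophil elastase, lay at -1.10 (SE 0.14, adjusted p = 8.8e-14 by DESeq2), and SERPINB9, the granzyme B inhibitor, at -0.95 (SE 0.19, adjusted p = 2.3e-06 by DESeq2) in the authors' deposited table. SERPINB6, which inhibits cathepsin G, lay at -0.60 (SE 0.06, adjusted p = 6.3e-23 by DESeq2) at a mean normalised count of 4750 in the authors' deposited table. These genes are the 3 members of a 139.8 kb stretch of chromosome 6 (2832332 to 2972165, GRCh38). SERPINB8, on chromosome 18, lay at -1.04 (SE 0.11, adjusted p = 5.8e-22 by DESeq2) in the authors' deposited table. It overlaps HMSD on the same strand (189 normalised counts, log2 fold change 0.31). SERPINB7 (megsin), with a mean normalised count of 7862, lay at 0.08 with a 95% interval of -0.02 to 0.19 in the authors' deposited table, and did not pass (adjusted p = 0.242 by DESeq2). SERPINB2, an inhibitor of urokinase, had a mean of 5.78 and did not pass.

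Promoters of 59 members were matched by symbol in the RefSeq table (GRCh38.p14). They are shown for the 3 members with the largest positive and the 2 with the largest negative fold changes among those with a mean of at least 300 and an entry, as the 250 bases before the start. Capitals mark matches on either strand to TGANTCA, the binding motif of AP-1, a factor known to act on protease genes, and to GGGCGG, the GC box.
PLAUR, chr19:43670170-43670419, minus strand: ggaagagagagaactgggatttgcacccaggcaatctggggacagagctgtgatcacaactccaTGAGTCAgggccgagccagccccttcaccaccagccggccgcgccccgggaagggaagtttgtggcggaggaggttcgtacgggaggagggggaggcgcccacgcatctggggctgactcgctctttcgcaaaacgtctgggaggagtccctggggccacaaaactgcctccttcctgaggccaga
SERPINI1, chr3:167735471-167735720, plus strand: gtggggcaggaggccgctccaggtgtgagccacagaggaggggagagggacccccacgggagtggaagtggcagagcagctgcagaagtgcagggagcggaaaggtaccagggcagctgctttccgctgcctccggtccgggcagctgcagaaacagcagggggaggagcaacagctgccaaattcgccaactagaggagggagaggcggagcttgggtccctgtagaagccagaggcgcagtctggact
ADAM22, chr7:87934001-87934250, plus strand: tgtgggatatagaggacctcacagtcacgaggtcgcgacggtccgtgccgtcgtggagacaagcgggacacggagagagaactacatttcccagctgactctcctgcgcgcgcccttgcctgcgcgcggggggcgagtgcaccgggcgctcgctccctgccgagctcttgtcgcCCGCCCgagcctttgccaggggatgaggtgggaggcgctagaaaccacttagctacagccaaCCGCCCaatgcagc
SERPINB1, chr6:2841864-2842113, minus strand: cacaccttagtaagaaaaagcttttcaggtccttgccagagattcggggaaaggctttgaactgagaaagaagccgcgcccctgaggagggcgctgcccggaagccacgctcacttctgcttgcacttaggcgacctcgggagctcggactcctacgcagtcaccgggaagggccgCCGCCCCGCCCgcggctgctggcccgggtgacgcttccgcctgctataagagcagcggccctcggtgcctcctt
SERPINB8, chr18:63969831-63970080, plus strand: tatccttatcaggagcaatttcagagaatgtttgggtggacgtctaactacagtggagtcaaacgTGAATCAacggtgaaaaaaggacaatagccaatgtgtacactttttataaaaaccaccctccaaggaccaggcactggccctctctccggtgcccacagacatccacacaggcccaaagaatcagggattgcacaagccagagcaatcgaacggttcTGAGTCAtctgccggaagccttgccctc

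The AP-1 letters occurred in 10 of the 59 promoters (16.9%), against 6.60% of 27305 promoters in the table. Of those 10 genes, PLAUR passed on the positive side, SERPINB8, MMP7 and MMP20 on the negative side, and the other 6 did not pass. PLAUR held 1 match and SERPINB8 held 2. The GC box occurred in 57.6% of the members' promoters and in 42.3% of all. A match is a run of letters and not a bound site.

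Partner genes outside the group were read from lists of the plasminogen system, other protease inhibitors, cathepsins, ADAM partners and ADAM substrates. Of 17 genes of the cell-surface serine protease system in the authors' deposited table, 7 were positive, 2 negative and 8 without a call (DESeq2 adjusted p under 0.05). That is 41.2% positive and 11.8% negative, against 20.9% and 21.5% of all genes, the shares that the other lists below are to be read against. The secreted protease gene HTRA1 (2.38, SE 0.14), LRP1 (2.27, SE 0.10), whose receptor clears complexes of proteases with their inhibitors, and the thrombin receptor gene F2R (2.07, SE 0.07) were on the positive side (authors' deposited table). S100A10 lay opposite PLAUR at -2.22 (SE 0.08), with its partner ANXA2 at -0.94 (SE 0.06) in the authors' deposited table. Together their proteins hold plasminogen and the tissue-type activator at the cell surface. Plasminogen itself, PLG, had a mean normalised count of 3.10.

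Of 7 other protease inhibitors, the tissue factor pathway inhibitor gene TFPI (-2.0, SE 0.10) and the cystatin gene CSTB (-1.51, SE 0.09) were among 3 on the negative side, while secreted CST3 (1.66, SE 0.10) was on the positive side (authors' deposited table). Cathepsins had 6 of 12 positive and 2 (16.7%) negative, with the largest values for CTSC (2.40, SE 0.07) and CTSH (1.24, SE 0.15), with CTSK (-0.97, SE 0.20) and CTSZ (-0.81, SE 0.08) on the negative side (authors' deposited table). Of 15 ADAM partners and convertases, 5 (33.3%) were positive and 3 (20%) negative. Their means ran from 2.95 to 6987, and all genes with a mean of at least 1000 were 33.2% positive and 50% negative. TSPAN5, a tetraspanin that escorts ADAM10, lay at 1.58 (SE 0.06), and the convertase genes PCSK7 and FURIN, whose products cut the prodomains of such proteases, at 1.07 (SE 0.11) and 0.61 (SE 0.07) in the authors' deposited table. PACS1, a sorting protein for furin, had a value of -0.96 (SE 0.06) in the authors' deposited table. Of 15 ADAM substrates, 6 were positive and 3 negative, the negative share being near that of all genes. The 3 negative genes in the authors' deposited table were MET (-0.36, SE 0.06), HBEGF (-0.18, SE 0.08) and the low-count EREG (-2.50, SE 1.02). The largest at means of at least 50 in the authors' deposited table were JAM3 (1.94, SE 0.09), NRG1 (1.36, SE 0.09), TGFA (1.32, SE 0.11) and TNFRSF1A (1.28, SE 0.06).

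**Figure D5:**
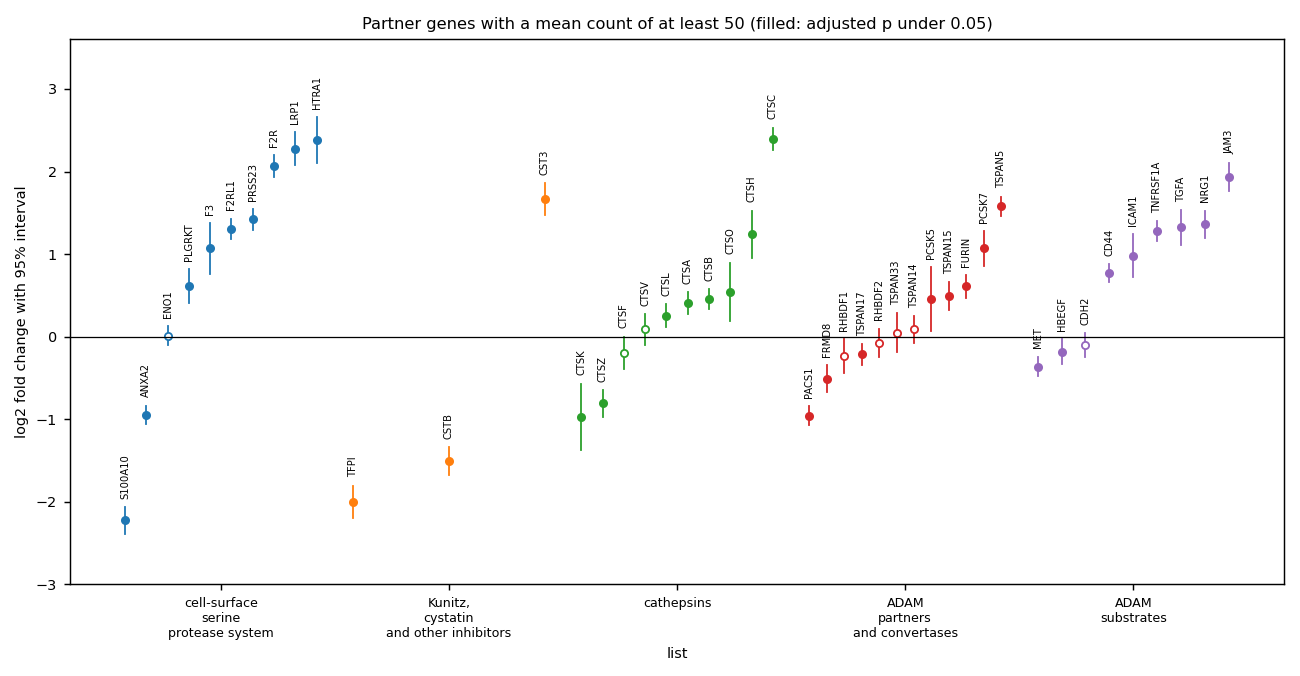
Log2 fold change with its 95% interval for partner genes with a mean normalised count of at least 50, by list. Filled points passed a DESeq2 adjusted p of 0.05. S100A10 and TFPI lie near -2, and HTRA1, LRP1, F2R and CTSC above 2.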

How the data were processed

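Total RNA from 3 shALDH18A1 and 3 shControl libraries of NCI-H1299 was sequenced. The labels' protocols name RNAiso extraction and a TruSeq kit and call the libraries RIP-seq. The submitters' processing notes name fastp 0.23.2, STAR 2.7.10a, featureCounts, DESeq2 and hg38, with no role or order. Per the file headers, the authors deposited 1 comparison table. The authors' table gives the mean normalised count per gene (a signal averaged over libraries), and the authors' log2 fold change with its SE. The Wald statistic (a score), the p-value and the adjusted p-value were deposited beside them, per the file headers. Counts per library were not analysed here, so depth per library is unknown, no count model was refitted, and no SD is given.

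The statistic was recomputed as fold change over SE, and the adjusted p-values by Benjamini-Hochberg over 25287 genes; both matched the deposited values. The code for these steps was tested on fold changes simulated with the deposited SEs. No counts or libraries were simulated, so that test does not bear on the count model. Intervals are 95% Wald intervals from the deposited SE. Approximate levels on each side assume equal group sizes. Exon length, spans and coding sequences came from GENCODE release 29 (GRCh38), and lengths were found for 18416 genes. Python 3.11.15, pandas 2.3.3, numpy 2.4.6 and scipy 1.17.1 were used.

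The members and gene lists were chosen with earlier results of these data known. In each of 10 roles, up to 8 called members with a mean of at least 50 were named by absolute fold change, with the 3 of highest mean, and up to 4 called genes of each partner list. Members named beyond this rule, those at means below 50 among them, and ANXA2, PLG, MET, HBEGF and EREG were chosen after their values were seen. Alternatives were a stricter adjusted p of 0.01, a minimum log2 fold change of 1, unadjusted p, a minimum mean of 10, and shifts of the fold changes to a median of 0 or to equal total counts. Of the members, 1 is counted in the totals and not reported singly here or drawn in the plots of members.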

Additional observations from a re-analysis of the deposited data

How the results depend on the processing

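With a log2 fold change of at least 1 required beside the DESeq2 adjusted p of 0.05, 17 members were called positive and 11 negative, against 28 and 19 without it. Both counts stayed within 1.5 times the original under the other alternatives run. Shifting all fold changes to equal total counts lowered them by 0.12 and put the members' median at -0.03, against 0.09 as deposited. ADAM17, RECK, SERPINE2 and ADAMTS7 then no longer passed, and ALDH18A1 passed at -0.19 (adjusted p = 0.0227). The shift to a median of 0 changed no member's call. At an adjusted p of 0.01, 5 members no longer passed, and with the unadjusted p, MMP13 and ADAMTS17 passed as well. No paired analysis was possible because the deposited columns carry no libraries. For the same reason, leaving out each library, the edgeR fit and another normalisation were not run. Depth limits the 20 members with a mean below 10, whose median SE was 1.16. Among members with a mean of at least 1000, 12 were positive and 2 negative when about 1000 was required on both sides, an alternative chosen after seeing the data, against 15 and 3.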
